A study of Mus musculus with 6 samples.

Results

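Cultures of J1 mouse embryonic stem cells that received 1 µL of water (ddH2O) were set against cultures that received 1 µL of DMSO, and the small RNA of each was sequenced after 24 h. Neither culture received a test compound, so the comparison shows how far the vehicles of the study lay apart across all microRNA arms. J1 is a line of the 129 strain, adapted to growth on gelatin in Knockout DMEM with serum replacement and 1000 U/ml of leukemia inhibitory factor, a cytokine that holds the cells in self-renewal. These 2 libraries were chosen by their treatment labels out of 6, and the other 4 came from cells kept for the same time in retinoic acid at 1 µM, BIO at 1 µM, CHIR99021 at 3 µM, both inhibitors of the kinase GSK3, or vitamin C at 50 µg/ml. Water is the study's control for vitamin C, and DMSO is its control for the other compounds. There was 1 library per group, so no spread between cultures was measured, and vehicle, culture and library preparation cannot be told apart.

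MicroRNAs are cut from hairpin transcripts, and either strand of the hairpin stem, the 5p or the 3p arm, can be loaded into an Argonaute protein. The loaded arm pairs with messenger RNAs chiefly through bases 2 to 8, the seed, and arms with one seed form a family with shared targets. Mouse embryonic stem cells are known for the miR-290-295 cluster, whose members promote their rapid cell cycle, while let-7 and tissue-restricted arms are associated with differentiation.

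The arms that differed most among those at 100 CPM or more (counts per 1000000 microRNA tags) are shown first, because the later results on length and on arms of one hairpin turn on them. Capitals mark the seed, and the sequences are the RefSeq mature forms on GRCm38.p6, read 5′ to 3′. Of the 1262 arms with tags, 970 matched a RefSeq entry, and miR-375-3p and miR-301b-3p are named only. MiR-1a-3p, also called higher, is described below without its sequence. The following 5 were higher in ddH2O.
miR-210-3p: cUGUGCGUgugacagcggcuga
miR-499-5p: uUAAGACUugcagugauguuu
miR-152-3p: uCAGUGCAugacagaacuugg
miR-10a-5p: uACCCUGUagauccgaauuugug
miR-449c-5p: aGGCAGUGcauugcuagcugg
The following 4 were lower in ddH2O.
miR-296-3p: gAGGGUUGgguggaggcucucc
miR-92a-2-5p: aGGUGGGGauugguggcauuac
miR-149-3p: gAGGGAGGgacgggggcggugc
miR-877-5p: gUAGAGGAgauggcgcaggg
No seed is shared among these 9, and the 4 lower arms carry runs of G, as the letters show.

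The ddH2O library held 20362550 tags, of which 1748591 (8.59%) came from microRNA arms, and the DMSO library held 18870345 tags, of which 2155072 (11.4%) did. Exact binomial (Clopper-Pearson) 95% intervals were 8.575 to 8.599% and 11.41 to 11.43%. The floor, taken as 3 counts, was 1.72 CPM in ddH2O and 1.39 CPM in DMSO. Intervals and floors cover counting error only, since the reads carry no molecular identifiers and do not stand for separate molecules. The cells were checked against the stem cell cluster, whose 16 arms summed to 272761 CPM in ddH2O and 291810 CPM in DMSO. In RNA from whole cultures, a change in the number of cells with a microRNA and a change in its amount per cell cannot be told apart.

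Tags of 1087 arms were found in ddH2O or DMSO and 863 arms were found in both. Another 97 arms had tags in ddH2O and not in DMSO, and 127 had tags in DMSO and not in ddH2O, all of them under 10 CPM. The 484 arms that reached 10 CPM in the higher library were compared, each by the ratio of its levels, ddH2O over DMSO, with an exact conditional binomial 95% interval. An arm counted as called when that interval lay clear of 1 and the levels differed by 2-fold or more. By this rule 35 arms (7.23% of those compared) were called, 24 higher (4.96%) and 11 lower (2.27%) in ddH2O. The arms called higher summed to 9587 CPM in ddH2O and 3971 CPM in DMSO, and the arms called lower to 1453 CPM in ddH2O and 4682 CPM in DMSO. The split depends on the scaling: 20 higher and 20 lower with TMM, also 20 and 20 with median-of-ratios scaling, and 10 higher and 45 lower when counts were scaled to all tags. These scalings moved the median ratio by -0.11, -0.09 and -0.41 on the log2 scale. Of the 484 arms, 288 lay above 0 and 196 below, and the number above was 240 with TMM, 251 with median-of-ratios scaling and 117 when scaled to all tags, so the sign of a small ratio depends on the scaling.

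The most abundant arms were close in the 2 libraries. The 10 most abundant made up 49.2% of microRNA tags in ddH2O and 50.3% in DMSO. MiR-293-3p of the stem cell cluster led both libraries, with 101958 CPM in ddH2O and 101118 CPM in DMSO. MiR-290a-5p of the same cluster had 76979 CPM in ddH2O and 96000 CPM in DMSO, a ratio of 0.802 (0.796 to 0.807). At this depth the interval of an abundant arm is far narrower than a 2-fold change, so a large share of small ratios lay clear of 1: 268 of the 484 intervals did. MiR-140-3p had 76089 CPM in ddH2O and 66818 CPM in DMSO, and miR-103-3p had 61515 CPM in ddH2O and 48548 CPM in DMSO. MiR-423-5p had 23952 CPM in ddH2O and 37498 CPM in DMSO, 1.57-fold lower (1.55 to 1.58), which was the lowest ratio among the 23 arms at 10000 CPM or more. None of those 23 arms was called, and their log2 ratios ran from -0.65 to 0.40 with an SD of 0.28. The SD of the log2 ratios was 0.54 at 1000 to 10000 CPM (80 arms), 0.45 at 300 to 1000 CPM (62 arms), 0.47 at 100 to 300 CPM (89 arms), 0.56 at 30 to 100 CPM (105 arms) and 0.71 at 10 to 30 CPM (125 arms). Of all 254 arms at 100 CPM or more, 207 differed by less than 1.5-fold.

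**Figure D1:**
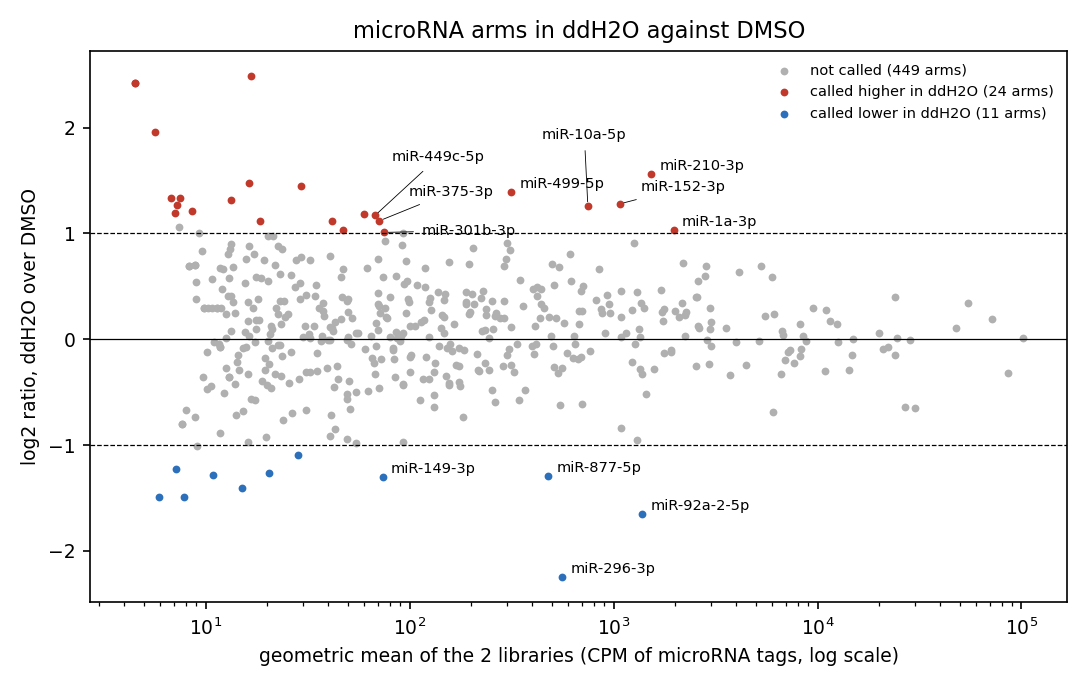
Each point is a microRNA arm, with the geometric mean of its levels in ddH2O and DMSO on the log-scaled x axis (CPM) and its log2 ratio, ddH2O over DMSO, on the y axis. Dashed lines mark 2-fold, the 24 red arms were called higher and the 11 blue arms lower, and miR-296-3p lies lowest at -2.25; 1 library per group, so no error between cultures is drawn.

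MiR-210-3p, an arm known for induction by hypoxia-inducible factor, had 2634 CPM in ddH2O and 895 CPM in DMSO. It was 2.94-fold higher (2.79 to 3.11), and the other libraries spread over 736 to 2230 CPM, so ddH2O stood above all of them. Its hairpin lies on chromosome 7, with the arm at chr7:141221407-141221428 on the minus strand and no other annotated gene on that strand. MiR-499-5p, from an intron of the myosin gene Myh7b (chr2:155622893-155622914), had 510 CPM in ddH2O and 194 CPM in DMSO. It was 2.63-fold higher (2.34 to 2.96), ddH2O being the highest and DMSO the lowest of the 6 libraries, although CHIR99021 was close to ddH2O at 480 CPM. MiR-152-3p, from an intron of Copz2 (chr11:96850439-96850459) and known for pairing with the transcript of the DNA methyltransferase Dnmt1, had 1677 CPM in ddH2O and 689 CPM in DMSO. Retinoic acid, at 3839 CPM, was above ddH2O for this arm, and CHIR99021, at 501 CPM, was below DMSO. MiR-10a-5p, from the Hoxb cluster (chr11:96317186-96317207), had 1158 CPM in ddH2O and 484 CPM in DMSO. Vitamin C and CHIR99021 lay near ddH2O at 997 and 902 CPM, BIO lay below DMSO at 370 CPM, and retinoic acid had 57226 CPM.

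The other called arms at 100 CPM or more were nearer to 2-fold or rest on fewer tags. MiR-449c-5p, from an intron of Cdc20b and known from multiciliated cells, had 102 CPM in ddH2O and 45 in DMSO, with 28.7 to 75.4 CPM in the other libraries. MiR-375-3p, an arm of pancreatic islet cells, had 105 CPM in ddH2O and 48.3 CPM in DMSO. In that arm the difference lay in the longer tags: those of 22 to 26 bases were 2.67-fold higher (2.01 to 3.58), and those of 20 to 21 bases had a ratio of 1.11 (0.643 to 1.92). MiR-1a-3p, the main arm of skeletal and heart muscle, had 2818 CPM in ddH2O and 1376 CPM in DMSO, 2.05-fold higher (1.96 to 2.14). MiR-301b-3p, a member of the miR-130 family, had 187 tags in ddH2O and 114 tags in DMSO, 2.02-fold higher (1.59 to 2.57). Both stand just past the 2-fold line, beside miR-652-3p at 2.048-fold. Just short of it were miR-138-5p at 1.996-fold, miR-669o-5p at 1.988-fold and miR-881-3p at 1.979-fold higher, and miR-1943-5p at 1.988-fold, miR-410-5p at 1.981-fold, miR-1983-5p at 1.959-fold and miR-708-3p at 1.932-fold lower.

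The arms called lower at 100 CPM or more include strands that are usually the less loaded one of their hairpin. MiR-92a-2-5p, the partner of the abundant miR-92a-3p on the X chromosome (chrX:52741891-52741913, minus strand), had 782 CPM in ddH2O and 2449 CPM in DMSO. It was 3.13-fold lower (2.95 to 3.32), and ddH2O was the lowest of the 6 libraries. Retinoic acid and vitamin C had 1178 and 1189 CPM, CHIR99021 lay just below DMSO at 2393 CPM, and BIO lay above it at 2855 CPM. MiR-92a-3p, which is counted from 2 hairpins together, had 14843 CPM in ddH2O and 14847 CPM in DMSO. MiR-877-5p is a mirtron, an arm released by splicing of a short intron of Abcf1 without the enzyme Drosha, and had 306 CPM in ddH2O and 746 CPM in DMSO. It was 2.44-fold lower (2.21 to 2.69), with 228 to 977 CPM in the other libraries. MiR-149-3p, from an intron of the glypican gene Gpc1 (chr1:92850421-92850442), had 46.9 CPM in ddH2O and 116 CPM in DMSO. It was 2.47-fold lower (1.92 to 3.21), vitamin C lay beside ddH2O at 43.9 CPM, and BIO lay above DMSO at 134 CPM.

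**Figure D2:**
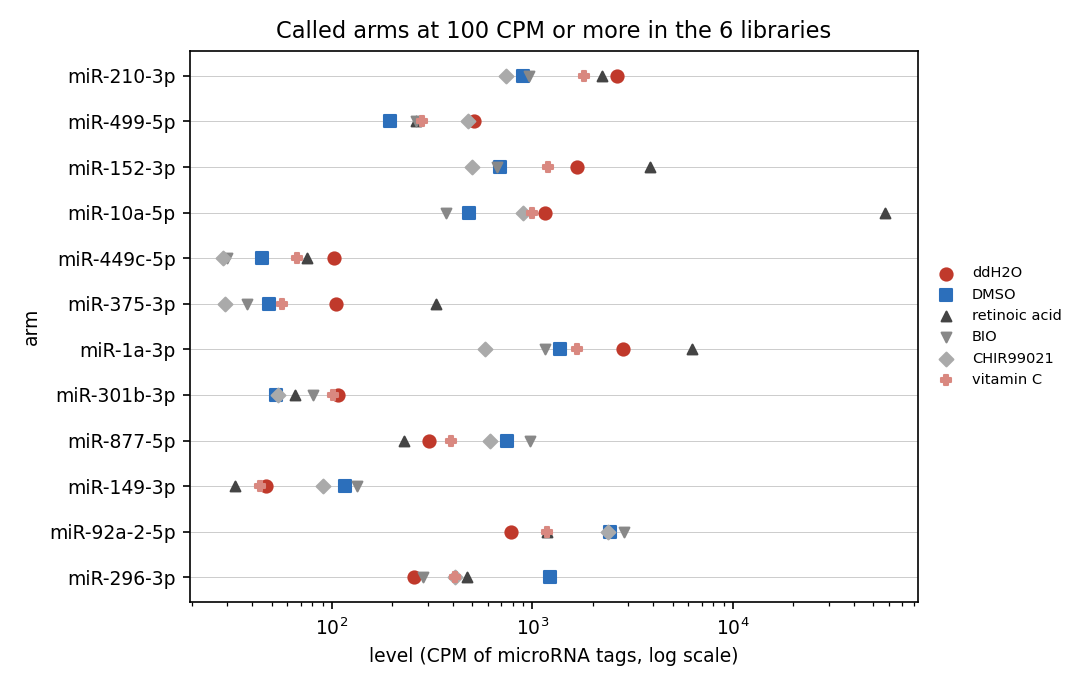
Levels of the 12 called arms at 100 CPM or more (rows) in each of the 6 libraries, in CPM on a log-scaled x axis, with 1 point per library. Red circles are ddH2O and blue squares DMSO; for miR-296-3p the DMSO library, at 1220 CPM, stands apart from the other 5, which lie between 257 and 470 CPM.

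MiR-296-3p, from the imprinted Gnas region (chr2:174267062-174267079, minus strand), had 257 CPM in ddH2O and 1220 CPM in DMSO. It was 4.75-fold lower (4.30 to 5.26), DMSO being the highest and ddH2O the lowest of the 6 libraries, which gave 470 CPM in retinoic acid, 285 in BIO, 410 in CHIR99021 and 410 in vitamin C. The difference lay in its shortest form. Of its tags, the one of 18 bases and the one of 22 bases start at the same base and differ at the 3′ end, as these forms copied from the deposited tags show, with the seed in capitals.
18-base form: gAGGGTTGggtggaggct
22-base form: gAGGGTTGggtggaggctctcc
The 18-base form had 335 tags in ddH2O (192 CPM) and 2445 tags in DMSO (1135 CPM), and was 5.92-fold lower (5.28 to 6.66). The other libraries had 214 to 388 CPM of it, nearer to ddH2O. The 22-base form, which is the RefSeq length, had 68 tags in ddH2O (38.9 CPM) and 85 tags in DMSO (39.4 CPM), a ratio of 0.986 (0.706 to 1.37), and 34.3 to 43.9 CPM in the other libraries. All tags of 20 to 26 bases together had 56.6 CPM in ddH2O and 56.1 CPM in DMSO, a ratio of 1.01 (0.765 to 1.33). Tags of 18 and 19 bases were 78.0% of the arm in ddH2O (73.8 to 81.7%) and 95.4% in DMSO (94.5 to 96.2%), and 79.1 to 86.3% in the other libraries. The call of this arm therefore holds only with the 18- and 19-base tags counted, and whether the 18-base sequence also occurs elsewhere in the genome was not tested.

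MiR-210-3p was higher in ddH2O at every length with 100 or more tags in both libraries, and most at full length. Its 22-base form had 2612 tags in ddH2O (1494 CPM) and 818 tags in DMSO (380 CPM), 3.94-fold higher (3.64 to 4.26). Its 20-base form had 702 tags in ddH2O and 451 tags in DMSO, 1.92-fold higher (1.70 to 2.16), and its 18-base form 180 tags in ddH2O and 117 tags in DMSO, 1.90-fold higher (1.49 to 2.41). The mean tag length of this arm was 21.30 bases in ddH2O and 20.94 bases in DMSO. MiR-499-5p went the same way, 3.07-fold higher (2.65 to 3.56) in tags of 22 to 26 bases and 1.93-fold (1.57 to 2.36) in tags of 20 to 21 bases. With tags of 20 to 26 bases alone, miR-92a-2-5p was still 3.13-fold lower (2.95 to 3.32), miR-877-5p 2.45-fold (2.22 to 2.71) and miR-149-3p 2.44-fold (1.89 to 3.18). Restricted in this way, 23 of the 24 arms called higher and 8 of the 11 called lower kept their call. Besides miR-296-3p, the calls lost were those of miR-188-5p, miR-7021-5p and miR-7658-5p, named here for that loss, with 11.4, 3.43 and 4.58 CPM in ddH2O against 4.64, 10.2 and 11.1 CPM in DMSO at full count. For these 3 the tags of 20 to 26 bases, scaled to their own total, had 8.29, 3.55 and 4.14 CPM in ddH2O against 3.91, 9.76 and 8.79 CPM in DMSO, so each fell short of the 10 CPM minimum in both libraries.

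**Figure D3:**
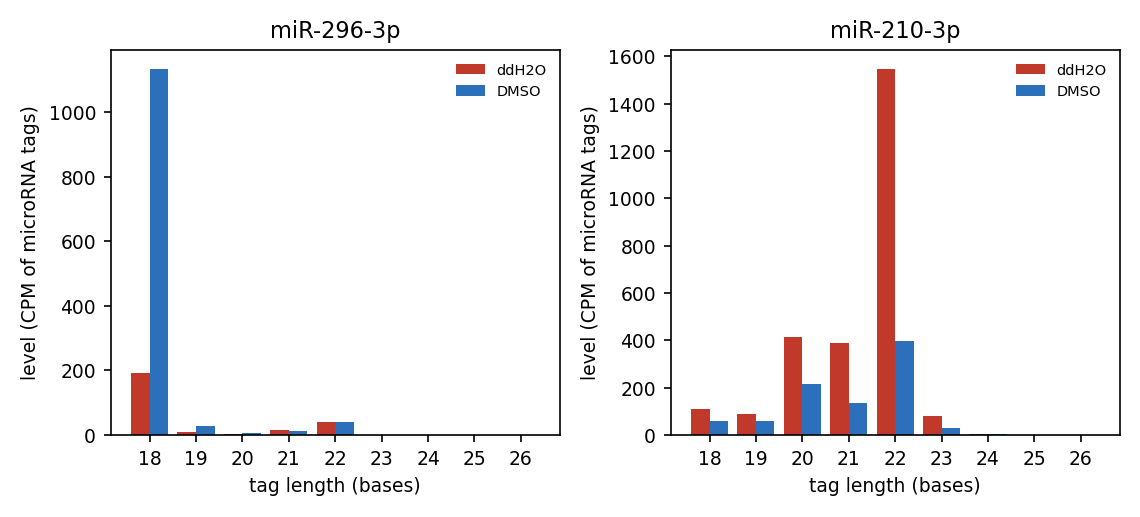
Level of miR-296-3p (left) and miR-210-3p (right) by tag length in bases, in CPM, with ddH2O in red and DMSO in blue; each bar is 1 library and starts at 0. The miR-296-3p difference sits in the 18-base bar, while miR-210-3p is higher in ddH2O from 18 to 23 bases.

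Short microRNA tags were less common in ddH2O across many arms. Tags of 18 and 19 bases made up 3.39% of microRNA tags in ddH2O (3.363 to 3.417%) and 4.95% in DMSO (4.922 to 4.98%), while the share was 1.67% in BIO, 3.33% in CHIR99021, 3.91% in retinoic acid and 4.73% in vitamin C. DMSO was thus the highest of the 6 and ddH2O lay among the rest. Over all tags of each library, microRNA or not, the share of 18 and 19 bases was 11.0% in ddH2O and 10.9% in DMSO. Of the 254 arms at 100 CPM or more, 186 had the lower short-tag share in ddH2O and 57 the higher, with median shares of 0.737% in ddH2O and 1.04% in DMSO. MiR-101b-3p, an arm whose family is known to pair with the mRNA of the Polycomb enzyme Ezh2, contributed most, with 8914 CPM of short tags in ddH2O and 12585 CPM in DMSO. Its whole level differed less, with 21693 CPM in ddH2O and 22842 CPM in DMSO. Short tags of miR-293-3p had 4202 CPM in ddH2O and 6616 CPM in DMSO, and those of miR-25-3p had 2831 CPM in ddH2O and 4511 CPM in DMSO. Mean tag length over all arms was 22.13 bases in ddH2O and 22.05 bases in DMSO. Tags identical to the most abundant tag of their arm made up 65.0% in ddH2O and 63.3% in DMSO, and tags with its start 91.9% in ddH2O and 92.3% in DMSO.

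Untemplated 3′ bases, which terminal nucleotidyl transferases add to mature microRNAs, were slightly more frequent in ddH2O. Tags that carried 1 to 3 such bases were 12.2% of matched tags in ddH2O (12.19 to 12.28%) and 10.8% in DMSO (10.75 to 10.83%), and 11.6 to 15.7% in the other libraries. A lone added T accounted for 4.42% in ddH2O and 3.76% in DMSO, and a lone added A for 3.79% in ddH2O and 3.55% in DMSO. An added G made up 0.795% in ddH2O and 0.614% in DMSO. These tags are left out of the counts above.

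The 2 arms of a hairpin, which come from 1 transcript, often differed in their ratios. Among 124 hairpins with both arms compared, 74 had both log2 ratios on the same side of 0, 9 had 1 arm called and 0 had both called. Calls were few, 7.23% over all 484 arms, so the lack of hairpins with both arms called says little about the arms. Over the 110 hairpins with both arms at 10 CPM or more in both libraries, Pearson's r between the arms' log2 ratios was 0.13, a description over points that share their libraries. In 11 of the 110 the ratio of 5p to 3p tags differed 2-fold or more. The largest shift was in Mir296, where the 5p arm made up 75.0% of tags in ddH2O (72.9 to 76.9%) and 34.4% in DMSO (32.9 to 35.9%). Its 5p arm alone had 769 CPM in ddH2O and 638 CPM in DMSO, so the shift lies in the 3p arm described above. With tags of 20 to 26 bases alone the 5p share of Mir296 was 92.9% in ddH2O and 91.6% in DMSO, so the shift rests on the short 3p tags. Mir708, in an intron of Tenm4, had a 5p share of 72.6% in ddH2O and 53.3% in DMSO, with miR-708-3p at 942 CPM in ddH2O and 1821 in DMSO. Mir431 of the Dlk1-Dio3 region had 50.6% in ddH2O and 33.4% in DMSO, and Mir467e of the Sfmbt2 intron had 87.2% in ddH2O and 76.6% in DMSO. The 5p share was lower in ddH2O for Mir1983, at 8.09% in ddH2O and 20.2% in DMSO, and for Mir410, at 13.1% in ddH2O and 26% in DMSO. Without tags of 18 and 19 bases these shares were 5.68% in ddH2O and 13.3% in DMSO for Mir1983, and 3.77% in ddH2O and 9.79% in DMSO for Mir410. Nuclear tRNA was not searched, so whether Mir1983 tags also match tRNA was not tested. Mir210 had 3.40% in ddH2O (2.90 to 3.95%) and 7.26% in DMSO (6.18 to 8.46%), since miR-210-5p differed less than its partner, at 92.6 CPM in ddH2O and 70.1 in DMSO. In Mir23a and Mir130a the 5p arm is a small remnant, 0.878% and 0.293% of tags in ddH2O against 2.31% and 0.740% in DMSO.

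**Figure D4:**
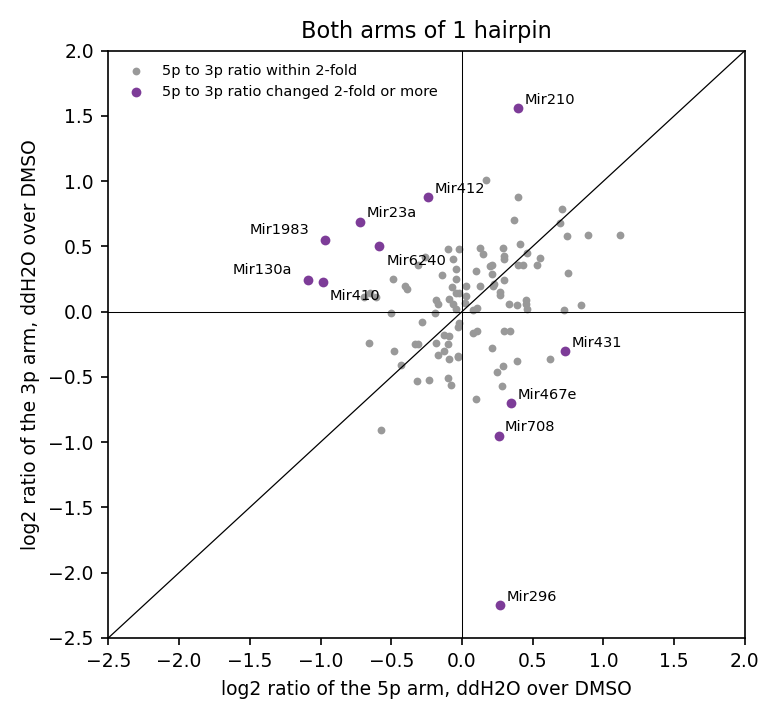
Each point is 1 of 110 hairpins, with the log2 ratio, ddH2O over DMSO, of its 5p arm on the x axis and of its 3p arm on the y axis; the diagonal marks equal ratios. The 11 purple hairpins changed their 5p to 3p ratio 2-fold or more, Mir296 and Mir210 lying farthest below and above 0 on the y axis.

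Stem cell microRNAs were near parity when scaled to the total of microRNA tags. Of the 14 compared arms of miR-290-295, 7 lay above and 7 below 0, and none was called, beside 7.23% over all arms. Their median log2 ratio was 0.00, beside 0.11 over all arms compared. With TMM 3 lay above 0 and 11 below, with median-of-ratios scaling 4 and 10, and scaled to all tags 0 and 14. The medians were then -0.12, -0.09 and -0.41. MiR-294-3p had 22790 CPM in ddH2O and 25358 CPM in DMSO, and miR-295-3p had 20374 CPM in ddH2O and 19586 CPM in DMSO. The miR-302 cluster, which carries the same seed as miR-294 and marks primed pluripotent cells, was scarce, at 95.5 CPM in ddH2O and 122 in DMSO over 9 arms. Its miR-302a-5p had 35.5 CPM in ddH2O and 68.2 CPM in DMSO, and its miR-302d-3p went the other way, with 36 CPM in ddH2O and 21.3 CPM in DMSO. Let-7 arms, which build up as stem cells differentiate, had 82115 CPM in ddH2O and 86931 CPM in DMSO over 16 arms, with 0 of 9 compared arms called and all log2 ratios between -0.29 and 0.01. The miR-17-92 cluster and its paralogs, which promote proliferation, had 92048 CPM in ddH2O and 90619 CPM in DMSO. Among their 24 compared arms 2 were called (8.33%, beside 7.23% over all arms). The higher one was miR-19a-5p, at 12 CPM in ddH2O (21 tags) and 4.64 CPM in DMSO (10 tags), and the lower one miR-92a-2-5p.

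Lists that mark other cell types were compared next, and their counts are read beside the 7.23% called and 4.96% called higher over all arms. With so few members in a list, 1 call is already a large share of it. In the muscle and heart list, 3 of 11 arms reached 10 CPM and 2 of these were called higher, miR-1a-3p and miR-499-5p. The third, miR-206-3p, had 25.2 CPM in ddH2O and 27.4 CPM in DMSO. Other muscle arms were at or near 0: miR-133a-3p, which is transcribed with miR-1a, had 5 tags in each library, miR-133b-3p had 0 in each, and no miR-208 arm had more than 3. The fibroblast and mesenchymal list summed to 15030 CPM in ddH2O and 10396 in DMSO, with 9 of 10 compared arms above 0 (6 of 10 when scaled to all tags) and a median of 0.59. Its 2 called arms were miR-152-3p and miR-21a-3p, and miR-21a-3p had 10.9 CPM in ddH2O and 4.18 CPM in DMSO. MiR-21a-5p, the main strand, had 7349 CPM in ddH2O and 4877 CPM in DMSO, 1.51-fold higher (1.47 to 1.55), and miR-29a-3p had 3276 CPM in ddH2O and 2670 CPM in DMSO. The 3p arm shared by miR-199a and miR-199b, fibroblast markers, had 957 CPM in ddH2O and 805 CPM in DMSO. Their less abundant 5p arms had 4 and 0 tags in ddH2O against 8 and 6 in DMSO, and miR-214-3p had 0 in each. MiR-143-3p, of smooth muscle and stroma, had 1047 CPM in ddH2O and 882 CPM in DMSO.

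The neural list summed to 13390 CPM in ddH2O and 10771 CPM in DMSO, mostly miR-128-3p at 10554 CPM in ddH2O and 8550 in DMSO. The neuronal miR-124a arms were not matched to this list and are missing from its sum and counts. Their log2 ratios were 0.30 for miR-124a-5p and 0.40 for miR-124a-3p, short of a call. Of the 16 compared arms in the list 13 were above 0 (7 when scaled to all tags). Of these 16, 1 was called, miR-132-3p at 10.9 CPM in ddH2O and 4.64 in DMSO. MiR-9-5p, of neural progenitors, had 437 tags in ddH2O and 328 tags in DMSO. The Hox list had 1 of 3 compared arms called, miR-10a-5p, and miR-196a-5p stood at 638 CPM in ddH2O and 390 in DMSO, 1.64-fold higher (1.5 to 1.79). In the endoderm and liver list, 1 of 5 compared arms was called, miR-375-3p, while miR-122-5p of hepatocytes had 33.2 CPM in ddH2O and 25.5 CPM in DMSO. The blood cell list had 0 of 4 called and summed to 265 CPM in ddH2O and 295 CPM in DMSO. What part other cell types have in these levels was not tested.

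The miR-34 arms, known as p53 targets, and the miR-449 arms, known from multiciliated cells, were mostly higher in ddH2O. All 8 compared arms were above 0, from 0.02 to 1.17, beside 288 of 484 over all arms. With each of the other scalings 7 of the 8 stayed above 0, miR-34a-3p, with 50.3 CPM in ddH2O and 49.7 CPM in DMSO, being the lowest. Of the 8, 1 was called (12.5%, beside 7.23% over all arms), and the 10 arms of the list summed to 7330 CPM in ddH2O and 4553 CPM in DMSO. Of these, 5 share the seed GGCAGUG, with a median log2 ratio of 0.69, the highest of the 18 seed families with 3 or more compared arms. The shared seed, in capitals, is shown for the RefSeq members beside miR-449c-5p above.
miR-34a-5p: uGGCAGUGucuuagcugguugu
miR-34b-5p: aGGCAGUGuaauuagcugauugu
miR-449a-5p: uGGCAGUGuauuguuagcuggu
MiR-34c-5p, the most abundant of the 5, had 6688 CPM in ddH2O and 4132 CPM in DMSO, 1.62-fold higher (1.57 to 1.66). MiR-34b-5p, from the same transcript, had 125 CPM in ddH2O and 67.3 CPM in DMSO, 1.85-fold higher (1.5 to 2.30). MiR-34a-5p, from its own locus on chromosome 4, had 269 CPM in ddH2O and 196 CPM in DMSO, 1.37-fold higher (1.20 to 1.57), and miR-449a-5p had 56.6 CPM in ddH2O and 37.6 CPM in DMSO. These 5 arms come from 3 loci, on chromosomes 4, 9 and 13. The median of the list stayed above 0 under every scaling, at 0.52 with TMM, 0.54 with median-of-ratios and 0.22 when scaled to all tags.

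Other families lay between these, and their called counts are read beside the 7.23% called over all arms. MiR-181 arms, known from lymphocyte and neural differentiation, summed to 31205 CPM in ddH2O and 23571 in DMSO, with 5 of 7 above 0 and 0 called. MiR-181a-5p had 806 CPM in ddH2O and 460 CPM in DMSO, 1.75-fold higher (1.61 to 1.90), and the abundant miR-181d-5p had 27434 CPM in ddH2O and 20843 CPM in DMSO, 1.32-fold higher (1.30 to 1.33). The epithelial miR-200 family summed to 1758 CPM in ddH2O and 1209 in DMSO, with 5 of 6 above 0, 0 called and miR-429-3p 1.82-fold higher, with 482 tags in ddH2O and 327 tags in DMSO. The arms of miR-103 and miR-107, which are hosted by pantothenate kinase genes, summed to 73682 CPM in ddH2O and 58610 CPM in DMSO. When counts were scaled to all tags the medians of these families turned to -0.01, -0.11 and -0.14, and those of 13 of the 28 lists changed sign in that way. Among miR-148 and miR-152 arms miR-152-3p alone was called. MiR-148a-3p had 328 CPM in ddH2O and 302 CPM in DMSO, and miR-148b-3p had 598 CPM in ddH2O and 675 CPM in DMSO. Tags of 18 and 19 bases were 29.7% of miR-148b-3p in ddH2O and 46.3% in DMSO. With tags of 20 to 26 bases alone miR-148b-3p was instead 1.16-fold higher in ddH2O (1.05 to 1.28). Among miR-130 and miR-301 arms miR-301b-3p was called higher and miR-130a-5p lower, and miR-130a-5p had 19.4 CPM in ddH2O and 41.8 CPM in DMSO. The miR-15/16 list (12 compared arms), miR-30 list (10), miR-23/27/24 list (7), miR-183 list (6), miR-221 with miR-222 list (3) and miR-26 list (2) had no called arm, with medians of 0.11, 0.14, 0.03, 0.05, 0.41 and 0.31. The 0.03 is the value of the 3p arm shared by miR-27a and miR-27b. Its tags were 82.4% of 18 and 19 bases in ddH2O and 88.5% in DMSO. With tags of 20 to 26 bases alone this arm was 1.56-fold higher in ddH2O (1.40 to 1.75). The testis-associated group of miR-465, miR-743 and miR-881 had 1 of 8 called (12.5%, beside 7.23% over all arms). It was miR-743b-3p, at 21.2 CPM in ddH2O and 8.35 in DMSO.

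Imprinted clusters are described next. The Dlk1-Dio3 arms, read from the maternal chromosome 12, summed to 72036 CPM in ddH2O and 78957 in DMSO, with 0 of 81 called, 32 above and 49 below 0, beside 7.23% called, 288 above and 196 below over all 484 arms. MiR-127-3p had 8583 CPM in ddH2O and 7813 CPM in DMSO, and miR-382-5p had 5900 CPM in ddH2O and 7421 CPM in DMSO. Within this region the group from Mir341 to Mir370, which lies in the transcript Rian, had the lowest median of the 28 genomic clusters with 3 or more compared arms, -0.60 over 4 arms, with miR-341-3p at 814 CPM in ddH2O and 1456 in DMSO. The cluster in the Sfmbt2 intron, paternally expressed and known from the placenta, had 3 arms higher and 1 lower of 33 (12.1% called, beside 7.23% over all arms), with 17050 CPM in ddH2O and 18669 CPM in DMSO. The higher ones were miR-466d-5p with miR-466n-5p, miR-669a-5p with miR-669p-5p, and miR-669f-3p, and the lower one was miR-669h-3p, each under 100 CPM. Several arms of this cluster are near-identical, so counts split among them are uncertain. In the Gnas region miR-298-5p had 6456 CPM in ddH2O and 7409 CPM in DMSO, so miR-296-3p stood alone there.

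Of the 10 compared arms that bypass Drosha or Dicer, 7 lay below 0, beside 196 of 484 over all arms. With TMM 7 lay below 0, beside 244 of 484, and scaled to all tags 10 did, beside 367 of 484. The 19 arms of this list summed to 24139 CPM in ddH2O and 36815 CPM in DMSO. Most of that sum was miR-320-3p, whose hairpin end is set by the start of transcription, at 21627 CPM in ddH2O and 33706 in DMSO, 1.56-fold lower (1.54 to 1.58). The 2 called arms, miR-877-5p and miR-702-5p, were both lower, and miR-702-5p had 13.2 CPM in ddH2O and 32 CPM in DMSO. MiR-1981-5p had 1842 CPM in ddH2O and 1976 CPM in DMSO, and miR-3102-3p had 78.9 CPM in ddH2O and 90.0 CPM in DMSO.

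**Figure D5:**
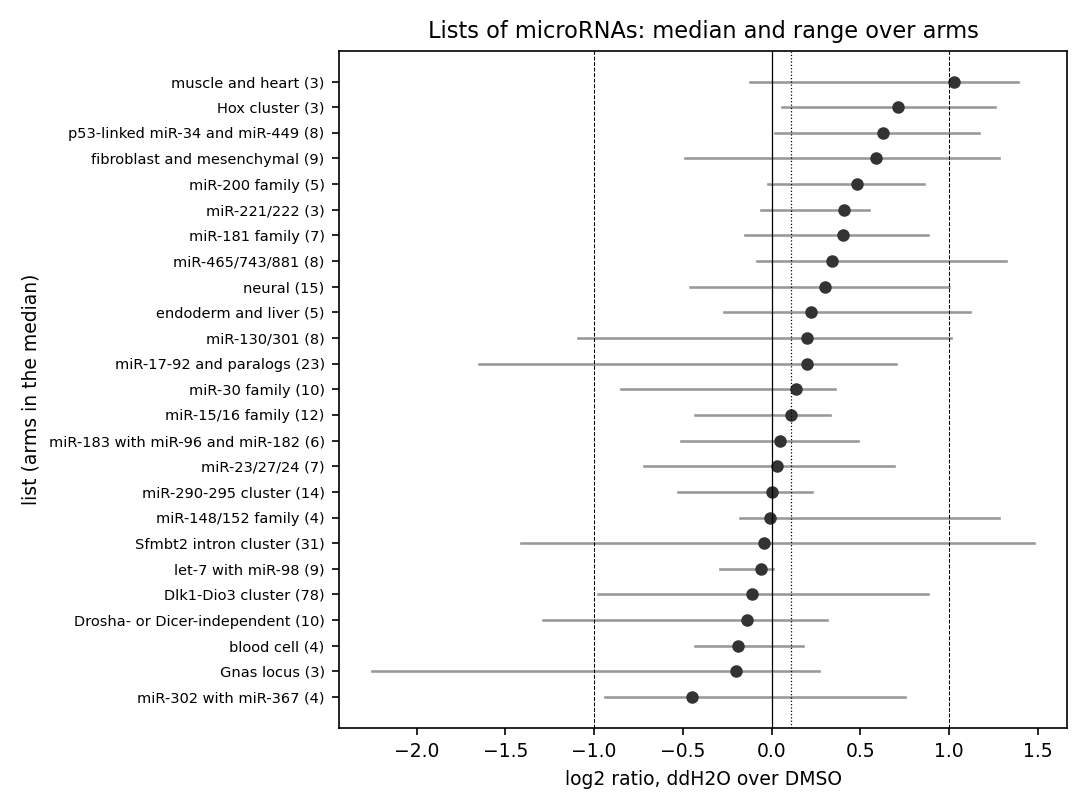
Median (point) and range (grey line) of the log2 ratio, ddH2O over DMSO, over the members of each list that averaged 10 CPM or more in the 2 libraries, with their number in parentheses; lists of 3 or more are shown. Dashed lines mark 2-fold and the dotted line the median over all arms compared, 0.11; muscle and heart lies highest at 1.03, from 3 arms, and miR-302 with miR-367 lowest at -0.45, from 4.

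Among the remaining seed families and genomic clusters, none had a median of 2-fold or more. The seeds with the lowest medians were UACACAC of miR-466 arms at -0.73 (3 arms), AAGUGCU of miR-294 and miR-302 at -0.34 (5 arms) and UAUACAU at -0.20 (6 arms). The highest after GGCAGUG were AGCACCA of miR-29 at 0.67 (3 arms), ACAUUCA of miR-181 at 0.53 (4 arms), AAUACUG of miR-200b and miR-429 at 0.48 (3 arms) and AGUGCAA of miR-130 and miR-301 at 0.42 (4 arms). By position, Mir34c with Mir34b (0.69, 4 arms), Mir421 with Mir374b (0.60, 3 arms), Mir429 to Mir200b (0.58, 4 arms) and Mir221 with Mir222 (0.41, 3 arms) were highest. Mir193b with Mir365-1 (-0.50, 3 arms), Mir302b to Mir367 (-0.45, 4 arms) and Mir15b with Mir16-2 (-0.19, 3 arms) were among the lowest. A median over so few arms moves with each of them.

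Base composition went with the ratio to a small degree. Called arms had a median GC content of 46.5% (24 higher) and 56.5% (11 lower), beside 47.8% over all 484. Across arms, Pearson's r between GC content and the log2 ratio was -0.12 and Spearman's rho -0.16 over 484 arms, and -0.28 and -0.23 over the 254 at 100 CPM or more, as a description of points that share 2 libraries. Median log2 ratios went from 0.28 under 35% GC (38 arms) through 0.14 at 45 to 50% (80 arms) to -0.04 at 60 to 70% (71 arms), and were 0.08 in the 13 arms at 70% or more. Both directions held GC-rich arms, with miR-874-3p at 78.3% higher and miR-149-3p at 81.8% lower. With ratios centred by GC content, 21 of the 24 and 10 of the 11 calls were kept.

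The calls under 100 CPM rest on few tags. MiR-486-3p, of red cells and muscle, and miR-671-5p, which overlaps an exon of Chpf2, each had 19 tags in ddH2O (10.9 CPM) and 4 in DMSO (1.86 CPM), with intervals of 1.95- to 23.7-fold. MiR-874-3p, from an intron of Klhl3, had 70 tags in ddH2O and 15 in DMSO, 5.75-fold higher (3.26 to 10.8), with 5.60 to 22.8 CPM in the other libraries. On the other side, miR-7021-5p had 6 tags in ddH2O and 22 in DMSO, miR-6930-5p 8 in ddH2O and 29 in DMSO, and miR-669h-3p had 9.15 CPM in ddH2O and 24.8 CPM in DMSO. Their intervals reach down to 1.17-, 1.31- and 1.54-fold lower, so the sizes of these differences are poorly fixed at this depth.

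The 2 vehicle libraries were then placed among all 6. Of the 24 arms called higher, ddH2O was above every other library in 8, or 19 when retinoic acid was left aside, and DMSO was below every other library in 10. Of the 11 called lower, ddH2O was below the rest in 6 and DMSO above the rest in 2. These ranks use the same levels that made the calls, so they follow in part from the rule of call and give no separate support. The counts over all arms, given next, do not use the call, but the 484 arms were admitted by their level in ddH2O or DMSO. Arms high only in another library are left out, such as miR-217-5p at 341 CPM in retinoic acid and 0 in ddH2O and DMSO. This filter favours high ranks of the vehicles, and the ranks were not recomputed under other scalings. Over all 484 arms compared, ddH2O was the highest library in 68 (145 when retinoic acid was left aside) and the lowest in 23, and DMSO was the highest in 31 and the lowest in 57. The same rule of call was applied to the other pairs of libraries. Between vitamin C and ddH2O 35 of 486 arms (7.20%) were called, and between BIO and DMSO 34 of 472 (7.20%). The other compounds lay farther from their vehicle, with 89 of 480 arms (18.5%) called between CHIR99021 and DMSO and 218 of 533 (40.9%) between retinoic acid and DMSO. The SD of log2 ratios at 100 CPM or more was 0.48 for ddH2O and DMSO, 0.46 for vitamin C and ddH2O, 0.42 for BIO and DMSO, 0.80 for CHIR99021 and DMSO and 1.41 for retinoic acid and DMSO. The widest of the 15 pairs was retinoic acid and CHIR99021, with 1.65 and 264 of 542 arms (48.7%) called. No replicate gives an error for the difference between pairs, and pairs that share a library are not independent.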

How the data were processed

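The files were deposited by the authors as lists of distinct small RNA tags of 18 to 44 bases with raw counts. Per the labels, 1 µg of TRIzol-extracted total RNA was used with a TruSeq RNA kit; the submitters' processing notes name mm9, and aligner and trimming are not given in the sources used here. Tags of 18 to 26 bases were matched exactly to 1174 hairpins with a Mir symbol (GENCODE M21, GRCm38), leaving out tags of rRNA, Mt_rRNA, Mt_tRNA, snoRNA, scaRNA, snRNA and Gm42418. Nuclear tRNA, large-subunit rRNA and the genome were not searched. An arm was the most abundant tag of each side of a hairpin, with tags starting within 2 bases; arms with the same tag were merged, and tags of several arms split evenly. Levels are CPM of microRNA tags. Ratios carry exact conditional binomial 95% intervals, and log2 ratios a pseudocount of 0.5. With 1 library per group no test was made and no p-value is given.

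Named arms are those called at 100 CPM or more, the 3 highest and 3 lowest called below that, the 10 most abundant, up to 4 per list, partners of called arms, the hairpins with the 5 largest rises and falls of the 5p share, and the 5 highest and lowest seed families and clusters (within 10 kb). Other names, such as called list members and absent markers, were chosen after their values were seen. The members and lists were chosen with earlier results of these data known. The alternatives were other scalings (edgeR 4.0.16, DESeq2 1.42.0, used for scaling factors only, in R 4.3.3), other minimum levels, other tag choices and GC centring. Counting and intervals were tested on simulated data. Python 3.11.15 with numpy 2.4.6, scipy 1.17.1 and matplotlib 3.10.9 was used.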

Additional observations from a re-analysis of the deposited data

How the results depend on the processing

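Against 24 arms higher and 11 lower, TMM and median-of-ratios scaling each gave 20 higher and 20 lower, scaling to all tags gave 10 and 45, and a minimum of 50 CPM gave 11 and 4, with fewer arms tested. Scaling to all tags brought the share of arms at 100 CPM or more within 1.5-fold to 71.2%, against 81.5%, and the most abundant tag alone brought the SD of log2 ratios to 0.55, against 0.48. The other alternatives, including tags of 20 to 26 bases (25 and 10) and GC-centred ratios (23 and 16), both chosen after seeing the data, stayed within 1.5 times of the counts. MiR-210-3p, miR-877-5p, miR-149-3p and miR-92a-2-5p were called under all 12 settings tried for each. MiR-296-3p lost its call with tags of 20 to 24 and of 20 to 26 bases, down to a log2 ratio of -0.01 when scaled to the total of those tags, or a ratio of 1.01 when scaled to all microRNA tags. MiR-499-5p, miR-152-3p, miR-10a-5p and miR-375-3p lost theirs when scaled to all tags, miR-449c-5p in 2 settings, miR-1a-3p in 4 and miR-301b-3p in 6. List medians turned negative in 3 of 28 lists with TMM, 2 with median-of-ratios and 13 when scaled to all tags. Apart from miR-296-3p, whose ratio then lay at 1, none of these 12 arms changed sign. Of the recomputed 5p shares 47 stayed within their counting interval and 13 did not, those of Mir296 and Mir410 moving most. The causes were not tested. No paired analysis was possible because each group had 1 library, and leaving out a replicate was not possible for the same reason. Depth limits the arms under 30 CPM, where a count of 0 allows up to 1.72 CPM in ddH2O and 1.39 CPM in DMSO.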
